A study of Mus musculus with 12 samples.

Results

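Pulmonary vascular tone was described here through 10 genes of the endothelin, nitric oxide and prostacyclin pathways, Edn1, Ece1, Ednra, Ednrb, Nos3, Gucy1a3, Gucy1b3, Pde5a, Ptgis and Ptgir, taken by name from a table of 23478 genes. All 10 had enough counts to be tested, among 15761 genes tested in all. RNA-seq had been run on lungs of newborn C57/Bl6 mice from which the lavage fluid had been taken out. Pups were injected into the peritoneum on day 0 with 25 mg/kg aurothioglucose (ATG), a gold-containing inhibitor of thioredoxin reductase, or with saline, and then spent 72 h in oxygen above 95% (hyperoxia) or in room air. The 4 groups of 3 libraries were ATG with hyperoxia, ATG with room air, saline with hyperoxia and saline with room air. No allele or transgene is given for any group, and the labels do not say whether a library held 1 animal or a pool, so p-values measure the spread between these libraries.

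Endothelial cells of lung vessels set the tone of the smooth muscle and pericytes around them. Endothelin-1, cut from its precursor by endothelin-converting enzyme, contracts smooth muscle through the ETA receptor, while the ETB receptor on endothelium clears endothelin and drives release of nitric oxide and prostacyclin. Nitric oxide activates soluble guanylate cyclase, a dimer of an alpha and a beta subunit, and the cyclic GMP it makes relaxes smooth muscle until phosphodiesterase 5 breaks it down. Prostacyclin relaxes smooth muscle through its own receptor and cyclic AMP. In the newborn lung these pathways contribute to the fall of vascular resistance after birth, and drugs that act on them are used in pulmonary hypertension.

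Library totals lay at 18009965 to 20486735 counts for ATG hyperoxia and 14589812 to 17368904 for ATG room air, and at 16490223 to 19267023 for saline hyperoxia and 14331749 to 15916703 for saline room air. Levels are given as CPM, counts relative to library size after TMM scaling, and changes as log2 fold changes with their standard error (SE) from edgeR's quasi-likelihood test, with Benjamini-Hochberg adjusted p over all genes tested and a threshold of 0.05. The summed level of 9 lung epithelial markers ran from 18680 to 20230 CPM (ATG hyperoxia), 20420 to 27400 CPM (ATG room air), 18460 to 19130 CPM (saline hyperoxia) and 17910 to 22620 CPM (saline room air), so every library held lung epithelium. Heart transcripts set 2 libraries apart. The atrial natriuretic peptide gene Nppa reached 1108 CPM in the library ATG hyperoxia 2 and 269.8 CPM in saline hyperoxia 2, while the remaining 10 had 1.85 to 3.55 CPM. Saline hyperoxia 1 stood apart in skeletal muscle transcripts, with 175.4 CPM of the myosin gene Myh8 against at most 15.3 CPM elsewhere. Thymus transcripts were high in saline hyperoxia 2 and 3, where the recombinase gene Rag1 had 39.2 and 15.0 CPM, against at most 6.35 CPM elsewhere, and 6 thymocyte markers summed to 74.7 and 31.9 CPM, against at most 17.7 CPM. By Xist against summed Y-linked genes, 2 of 3 ATG hyperoxia, 1 of 3 ATG room air, 1 of 3 saline hyperoxia and all 3 saline room air libraries were called male. The call gives each library 1 sex, so a pool of both sexes would not show. In whole lung, fewer cells of a type and less RNA per cell cannot be told apart.

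In hyperoxia 4 of the 10 genes were lower when both injections were averaged. They were Gucy1a3, Pde5a, Ednrb and Ednra, and 0 of the 10 were higher. Of all genes tested, 11.3% passed as lower and 11.0% as higher in that comparison, 22.4% in all. Without the 2 heart-rich libraries and saline hyperoxia 1, only saline hyperoxia 3 stays in its group. The averaged change was then −0.35 for Gucy1a3, −0.28 for Pde5a, −0.20 for Ednra and 0.54 for Edn1. Without the 2 heart-rich libraries alone, 3 of the 10 were lower and 0 higher. Without the 2 thymus-rich libraries, a fit added after seeing the data that keeps only saline hyperoxia 1 in its group, 2 were lower (Gucy1a3 and Pde5a) and 0 higher. The median log2 fold change of the 10 genes was −0.18, against a median of −0.003 over all genes. Within ATG-injected pups 2 of 10 passed, both lower (Gucy1a3 and Pde5a), where 6.25% of genes passed as lower and 11.7% passed in all. Within saline-injected pups 1 of 10 passed, also lower (Ednrb), where 4.50% of genes passed as lower and 9.19% passed in all. This Ednrb call was lost without the 2 thymus-rich libraries, at −0.24. The groups did not overlap for Gucy1a3, Pde5a, Ednrb and Ednra after either injection, with hyperoxia lower. Among all genes, 13.9% were lower without overlap after ATG and 14.9% after saline. These 2 hyperoxia comparisons share no library.

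**Figure D1:**
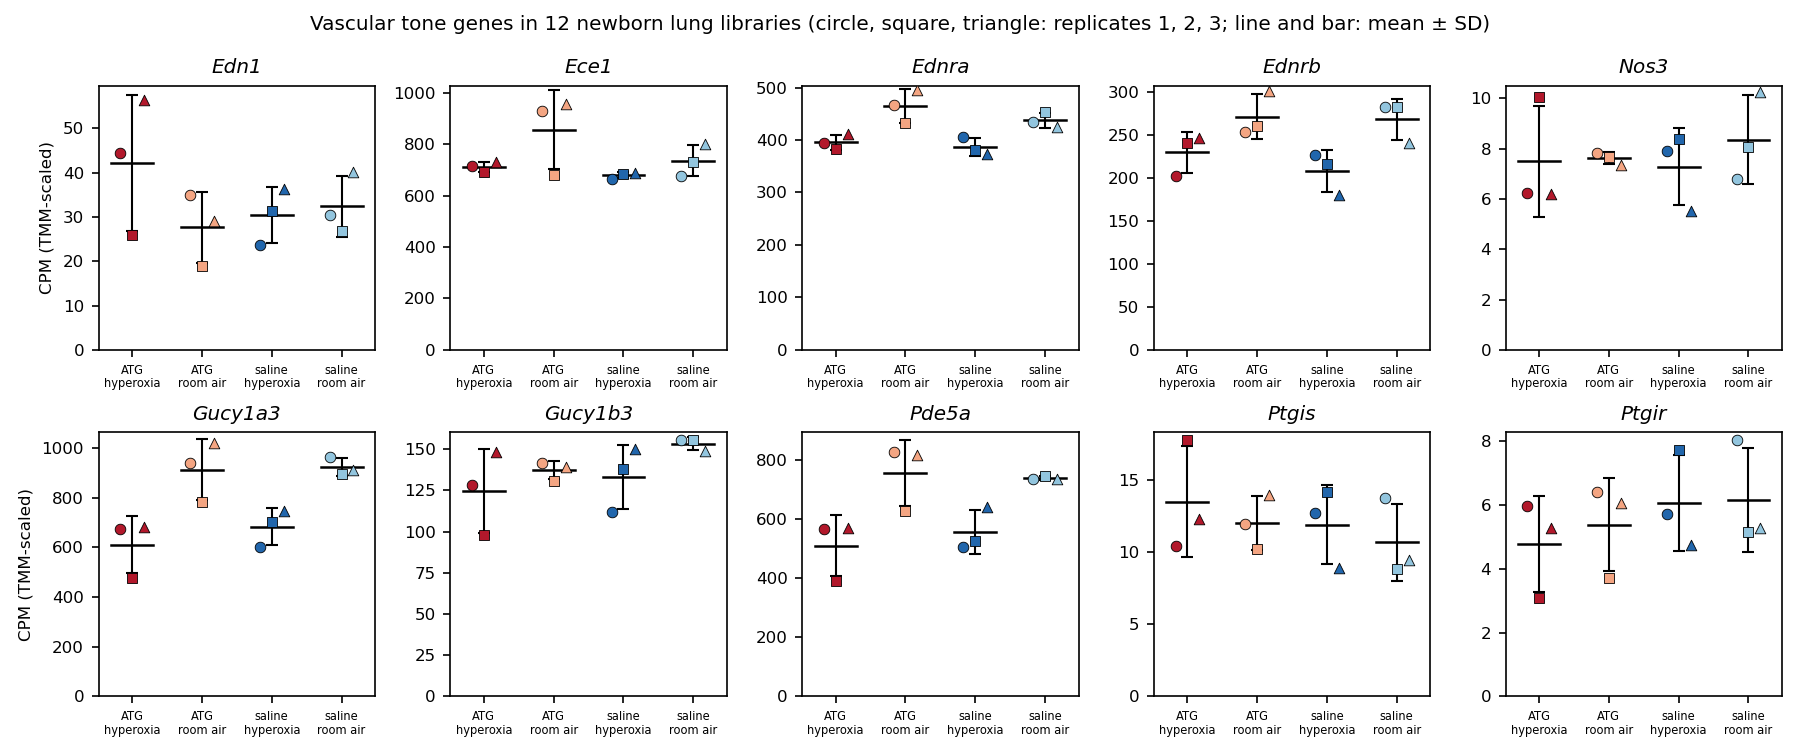
CPM of the 10 genes (vertical axes, from 0) in each of the 12 libraries, by group on the horizontal axis. Lines and bars give the mean and SD of 3 libraries. Gucy1a3 lies between 477 and 748 CPM in the 6 hyperoxia libraries and between 781 and 1019 CPM in the 6 room air libraries, and ATG hyperoxia 2 (square) is the lowest for Gucy1a3, Gucy1b3 and Pde5a.

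Gucy1a3 encodes the alpha-1 subunit of soluble guanylate cyclase, the nitric oxide receptor of vascular smooth muscle. It had 675, 477 and 681 CPM in ATG hyperoxia 1, 2 and 3, against 940, 781 and 1019 CPM in ATG room air. After saline it had 600, 702 and 748 CPM in hyperoxia, against 963, 895 and 911 CPM in room air. Every hyperoxia library lay below every room air library, and ATG hyperoxia 2, which also carried the most Nppa, was the lowest of all 12. Of all genes, 5.61% were lower in this way across all 6 hyperoxia against all 6 room air libraries. The averaged change was −0.51 (SE 0.09, adjusted p = 0.00128), a fold of 0.704. It was −0.58 after ATG (SE 0.13, adjusted p = 0.0106) and −0.43 after saline (SE 0.13, adjusted p = 0.0553, not passed). The averaged call held in all 20 alternative fits, at −0.54 to −0.35 (the value nearest 0 without the 3 libraries rich in heart or skeletal muscle transcripts), and without both thymus-rich libraries (−0.60). The ATG call was lost without ATG room air 3 (−0.48, adjusted p = 0.0664). After saline the gene passed with DESeq2 (−0.43, adjusted p = 0.0118), limma-voom (−0.44, 0.0471), no filter (−0.43, 0.0365) and the replicate number as a block (−0.43, 0.0386). It also passed in the fit of the 6 saline libraries alone (−0.43, 0.00961) and without both heart-rich libraries (−0.44, 0.025). Of the 12 fits that left out 1 library, 2 passed, without ATG hyperoxia 2 (−0.43, 0.0129) and without ATG room air 2 (−0.42, 0.0398). From the lowest mean to the highest, the groups were ATG hyperoxia (611 ± 116 CPM), saline hyperoxia (684 ± 75), ATG room air (913 ± 121) and saline room air (923 ± 36, SD, n = 3 each). The hyperoxia pair and the room air pair each overlapped.

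Pde5a encodes the phosphodiesterase that breaks down cyclic GMP in lung vessels and is the target of sildenafil. Its level was 568, 391 and 572 CPM in ATG hyperoxia 1, 2 and 3, against 828, 627 and 817 CPM in ATG room air. After saline it was 505, 525 and 643 CPM in hyperoxia, against 736, 746 and 737 CPM in room air. Within each injection the groups did not overlap, but saline hyperoxia 3 lay above ATG room air 2. The averaged change was −0.49 (SE 0.10, adjusted p = 0.0029), a fold of 0.713. It was −0.57 after ATG (SE 0.14, adjusted p = 0.0181) and −0.41 after saline (SE 0.14, adjusted p = 0.0943, not passed). All 20 alternatives kept the averaged call. Leaving out the 3 libraries rich in heart or skeletal muscle transcripts, which keeps 1 saline hyperoxia library, brought the change to −0.28. The ATG call was lost without ATG room air 1 (−0.48, adjusted p = 0.0966), ATG room air 3 (−0.50, 0.0875) or ATG hyperoxia 2 (−0.39, 0.0624), without both heart-rich libraries (−0.39, 0.0581) and in a fit of the 6 ATG libraries alone (−0.56, 0.0648). After saline the gene passed with DESeq2 (−0.40, adjusted p = 0.0333), the replicate number as a block (−0.42, 0.0465), without ATG hyperoxia 2 (−0.40, 0.0285) and in the fit of the 6 saline libraries alone (−0.41, 0.0184).

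Gucy1b3 encodes the beta-1 subunit, which pairs with alpha-1 and carries the heme that binds nitric oxide. Its level was 128, 97.7 and 148 CPM in ATG hyperoxia 1, 2 and 3, against 141, 131 and 139 CPM in ATG room air. After saline it was 112, 138 and 150 CPM in hyperoxia, against 156, 155 and 149 CPM in room air. The groups overlapped after both injections, and ATG hyperoxia 2 was again the lowest library. The averaged change of −0.17 (SE 0.09, adjusted p = 0.21) did not pass, nor did −0.14 after ATG (SE 0.13, adjusted p = 0.57) or −0.20 after saline (SE 0.13, adjusted p = 0.383).

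The 2 subunits did not keep a fixed ratio of counts. There were 5.26, 4.89 and 4.59 Gucy1a3 counts per Gucy1b3 count in ATG hyperoxia, against 6.65, 5.97 and 7.33 in ATG room air. After saline there were 5.38, 5.10 and 4.99 in hyperoxia, against 6.19, 5.76 and 6.11 in room air. All 6 hyperoxia libraries lay below all 6 room air libraries, and the difference in ratio is given as a description, with no test. Counts of genes of unequal length are compared here only between libraries. Pde5a, in contrast, held 0.75 to 0.88 counts per Gucy1a3 count in all 12 libraries, with group means of 0.83 ± 0.01 in ATG hyperoxia, 0.83 ± 0.05 in ATG room air, 0.82 ± 0.06 in saline hyperoxia and 0.80 ± 0.04 in saline room air (SD, n = 3 each).

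**Figure D2:**
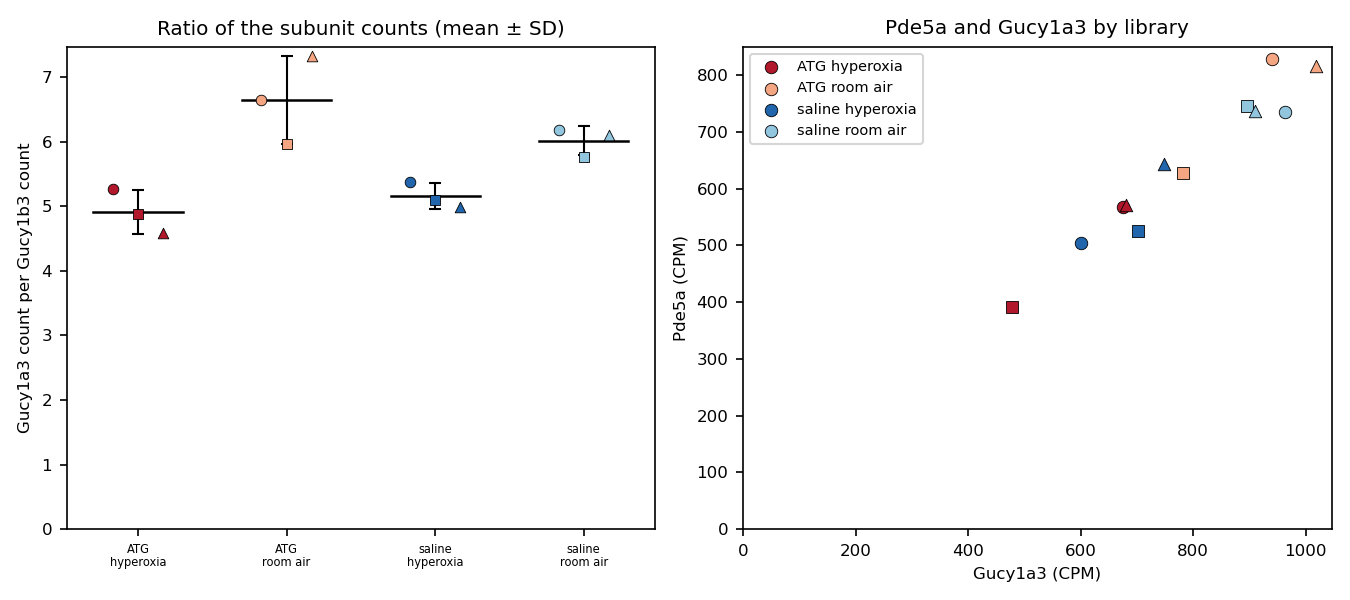
Left, Gucy1a3 counts per Gucy1b3 count (vertical axis, from 0) by group, with the mean and SD of 3 libraries. The 6 hyperoxia libraries lie between 4.59 and 5.38 and the 6 room air libraries between 5.76 and 7.33. Right, Pde5a against Gucy1a3 (both CPM, axes from 0), 1 point per library, where both genes are lowest in ATG hyperoxia 2.

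Both cyclase genes lie next to each other on the minus strand of mouse chromosome 3 (GRCm38.p6), where RefSeq names them Gucy1a1 (82092427 to 82145946) and Gucy1b1 (82032004 to 82074711), with 17715 bases and 0 genes between them. Pde5a lies on the plus strand of the same chromosome at 122729158 to 122859374. All 3 are protein-coding. Their promoters are shown because Gucy1a3 and Pde5a were lower together while the neighbour of Gucy1a3 did not pass. Each runs from 250 bases before to 50 after a RefSeq start, 5′ to 3′ on the strand of its gene. Capitals mark matches on either strand to 5 motifs, the core of the antioxidant response element (letters TGACNNNGC), the AP-1 site (letters TGANTCA), the core of the hypoxia response element (letters ACGTG), the GATA site (letters AGATAA or TGATAA) and the KLF site (letters CACCC). No match overlaps another in the 4 sequences.
Gucy1a3, start 1, chr3:82145601-82145900, minus strand: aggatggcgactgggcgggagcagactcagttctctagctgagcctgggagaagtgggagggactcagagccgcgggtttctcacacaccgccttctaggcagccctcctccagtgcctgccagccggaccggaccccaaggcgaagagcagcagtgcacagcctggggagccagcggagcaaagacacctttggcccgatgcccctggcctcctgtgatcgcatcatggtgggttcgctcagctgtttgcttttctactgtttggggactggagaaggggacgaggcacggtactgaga
Gucy1a3, start 2, chr3:82145024-82145323, minus strand: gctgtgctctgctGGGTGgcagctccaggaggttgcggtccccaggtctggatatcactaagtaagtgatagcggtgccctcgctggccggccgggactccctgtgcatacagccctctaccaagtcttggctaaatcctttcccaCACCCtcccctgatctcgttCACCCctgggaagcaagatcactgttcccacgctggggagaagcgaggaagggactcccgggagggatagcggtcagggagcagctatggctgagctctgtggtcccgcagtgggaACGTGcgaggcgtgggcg
Gucy1b3, chr3:82074662-82074961, minus strand: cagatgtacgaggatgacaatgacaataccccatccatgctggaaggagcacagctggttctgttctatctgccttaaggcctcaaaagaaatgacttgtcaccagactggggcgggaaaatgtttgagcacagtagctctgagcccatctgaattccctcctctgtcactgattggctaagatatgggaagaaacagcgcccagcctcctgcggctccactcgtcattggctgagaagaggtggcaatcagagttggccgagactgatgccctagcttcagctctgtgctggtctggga
Pde5a, chr3:122728908-122729207, plus strand: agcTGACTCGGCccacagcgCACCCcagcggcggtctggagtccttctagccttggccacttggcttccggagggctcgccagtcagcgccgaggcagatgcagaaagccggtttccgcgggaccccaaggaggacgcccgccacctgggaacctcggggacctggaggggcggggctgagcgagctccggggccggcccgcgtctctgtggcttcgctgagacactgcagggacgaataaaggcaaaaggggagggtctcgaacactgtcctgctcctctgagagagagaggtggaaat

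Start 1 of Gucy1a3 and the start of Gucy1b3 held none of the motifs searched. Start 2 of Gucy1a3 held 3 KLF motifs and 1 hypoxia response core, and Pde5a held 1 antioxidant response core and 1 KLF motif. Among 32851 promoters of the table, 57.5% held the KLF motif, 19.6% the hypoxia core, 18.6% a GATA motif, 12.4% the antioxidant core and 7.81% the AP-1 motif. Of 12 promoters listed for 8 of the 10 genes, 8 held the KLF motif, 3 the hypoxia core, 3 the antioxidant core, 1 a GATA motif and 0 the AP-1 motif. The 12 are not all separate, since starts 1 and 2 of the 4 of Ece1 overlap and hold the same KLF match. A match is a string of letters and was not tied to any change measured here. Nos3 and Ptgis had no entry.

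Both endothelin receptors were also lower in the average over injections. Ednrb, the ETB receptor of endothelium (chromosome 14, 103814615 to 103844508, minus strand), had 203, 241 and 247 CPM in ATG hyperoxia 1, 2 and 3, against 254, 260 and 301 CPM in ATG room air. After saline it had 227, 217 and 180 CPM in hyperoxia, against 282, 283 and 241 CPM in room air. The groups did not overlap within either injection, although the lowest room air library, saline room air 3, lay at the level of ATG hyperoxia 2 and below ATG hyperoxia 3. The averaged change was −0.31 (SE 0.08, adjusted p = 0.0106), a fold of 0.81, and it held in 20 alternatives at −0.41 to −0.25 but was lost without both thymus-rich libraries (−0.24, adjusted p = 0.0994). It was −0.24 after ATG (SE 0.11, adjusted p = 0.187, not passed) and −0.37 after saline (SE 0.11, adjusted p = 0.0473). The saline call lay close to the threshold and held in 12 of 21 alternatives. It was lost without saline hyperoxia 2 (−0.39), saline hyperoxia 3 (−0.28), saline room air 1 (−0.33) or saline room air 2 (−0.33), where the adjusted p was 0.0763, 0.186, 0.148 and 0.157. It was also lost without ATG hyperoxia 3 (−0.37), ATG room air 1 (−0.37) or ATG room air 2 (−0.36), at adjusted p of 0.052, 0.0531 and 0.0538, and without both heart-rich libraries (−0.39, 0.0573). Without the 3 muscle-rich libraries the saline change was −0.56, and without the 2 thymus-rich ones it was −0.24 and the call was lost. The first fit keeps only saline hyperoxia 3 of its group, the lowest of the 12 libraries at 180 CPM. The second keeps only saline hyperoxia 1.

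Ednra, the ETA receptor of smooth muscle (chromosome 8, 77663029 to 77724452, minus strand), had 393, 382 and 411 CPM in ATG hyperoxia, against 468, 432 and 495 CPM in ATG room air. After saline it had 405, 381 and 373 CPM in hyperoxia, against 434, 453 and 424 CPM in room air. It varied least of the 10 genes, with a biological coefficient of variation of 8.59%, and all 6 hyperoxia libraries lay below all 6 room air libraries. The averaged change was −0.21 (SE 0.05, adjusted p = 0.0116), a fold of 0.868. Neither injection alone passed, at −0.23 after ATG (SE 0.08, adjusted p = 0.0582) and −0.18 after saline (SE 0.08, adjusted p = 0.169). The ATG change passed with DESeq2 (−0.23, adjusted p = 0.0221), limma-voom (−0.23, 0.0441) and without ATG room air 2 (−0.27, 0.0271). The averaged call held without any 1 library but was lost without both heart-rich libraries (−0.17, adjusted p = 0.0627), without the 3 muscle-rich ones (−0.20, adjusted p = 0.0779) and without both thymus-rich ones (−0.17, adjusted p = 0.128). After ATG there were 1.59 to 1.94 Ednra counts per Ednrb count in hyperoxia, against 1.64 to 1.84 in room air. After saline there were 1.76 to 2.07 in hyperoxia, against 1.54 to 1.76 in room air. Their ranges overlapped after ATG and met at 1.76 after saline, and this ratio was not tested.

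The ligand and its enzyme did not pass. Edn1, the endothelin-1 gene (chromosome 13, 42301476 to 42307990, plus strand), had 44.5, 25.9 and 56.4 CPM in ATG hyperoxia 1, 2 and 3, against 34.9, 19.0 and 29.0 CPM in ATG room air. After saline it had 23.7, 31.4 and 36.3 CPM in hyperoxia, against 30.5, 26.7 and 40.1 CPM in room air. ATG hyperoxia 1 and 3 were the highest of the 12 libraries, while ATG hyperoxia 2 lay inside the room air range. The change was 0.61 after ATG (SE 0.27, adjusted p = 0.165), −0.09 after saline (SE 0.27, adjusted p = 0.881) and 0.26 averaged (SE 0.19, adjusted p = 0.358). The ATG change passed without ATG hyperoxia 2 (0.89, adjusted p = 0.0258) and without both heart-rich libraries (0.89, 0.0242). Without the 3 muscle-rich ones, where 1 saline hyperoxia library is left, it was 0.90 and the averaged change was 0.54. The difference between the injections, 0.71 (SE 0.38, adjusted p = 1), did not pass edgeR's interaction test.

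Ece1, the endothelin-converting enzyme gene (chromosome 4, 137862237 to 137965229, plus strand), had 715, 691 and 731 CPM in ATG hyperoxia, against 930, 679 and 957 CPM in ATG room air. After saline it had 665, 683 and 687 CPM in hyperoxia, against 677, 730 and 799 CPM in room air. ATG room air 2 lay well under the other 2 libraries of its group, and the groups overlapped after both injections. The averaged change of −0.19 (SE 0.08, adjusted p = 0.0933) did not pass, nor did −0.27 after ATG (SE 0.11, adjusted p = 0.142) or −0.12 after saline (SE 0.11, adjusted p = 0.575). Without ATG room air 2 it passed in the average (−0.25, adjusted p = 0.00286) and after ATG (−0.39, adjusted p = 0.00388), and with sex as a covariate it passed in the average (−0.21, adjusted p = 0.0479).

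The enzymes that make nitric oxide and prostacyclin, and the prostacyclin receptor, were the lowest of the set, with 55 to 318 counts per library. Nos3, the endothelial nitric oxide synthase gene (chromosome 5, 24364816 to 24384474, plus strand), ranged from 6.21 to 10.0 CPM in ATG hyperoxia, 7.37 to 7.83 CPM in ATG room air, 5.54 to 8.40 CPM in saline hyperoxia and 6.78 to 10.2 CPM in saline room air. Its averaged change was −0.11 (SE 0.17, adjusted p = 0.689), with −0.03 after ATG (SE 0.24, adjusted p = 0.962) and −0.20 after saline (SE 0.24, adjusted p = 0.681). In GENCODE its exons share 1040 bases with an antisense RNA, Gm15587, and 294 with Atg9b on the other strand. Whether the counting used strand is not given in the sources used here, so the Nos3 level is uncertain. Of the other genes described, Ptgis shares 156 exon bases with an RNA on the other strand, Pde5a 55 and Edn1 35.

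Ptgis, the prostacyclin synthase gene (chromosome 2, 167203194 to 167252150, minus strand), ranged from 10.4 to 17.8 CPM in ATG hyperoxia, 10.2 to 13.9 CPM in ATG room air, 8.89 to 14.2 CPM in saline hyperoxia and 8.87 to 13.8 CPM in saline room air. Its averaged change was 0.16 (SE 0.17, adjusted p = 0.547), with 0.17 after ATG (SE 0.24, adjusted p = 0.723) and 0.16 after saline (SE 0.24, adjusted p = 0.753). ATG hyperoxia 2 held the highest Ptgis and the highest Nos3 of its group, and without it the ATG change of Ptgis was −0.07 and that of Nos3 −0.28, both not passed. Ptgir, the prostacyclin receptor gene of smooth muscle and platelets (chromosome 7, 16906490 to 16910905, plus strand), ranged from 3.08 to 5.96 CPM in ATG hyperoxia, 3.70 to 6.38 CPM in ATG room air, 4.75 to 7.70 CPM in saline hyperoxia and 5.15 to 8.01 CPM in saline room air. Its averaged change was −0.10 (SE 0.22, adjusted p = 0.796), with −0.17 after ATG (SE 0.31, adjusted p = 0.781) and −0.02 after saline (SE 0.31, adjusted p = 0.98). For these 3 genes the groups overlapped after both injections.

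**Figure D3:**
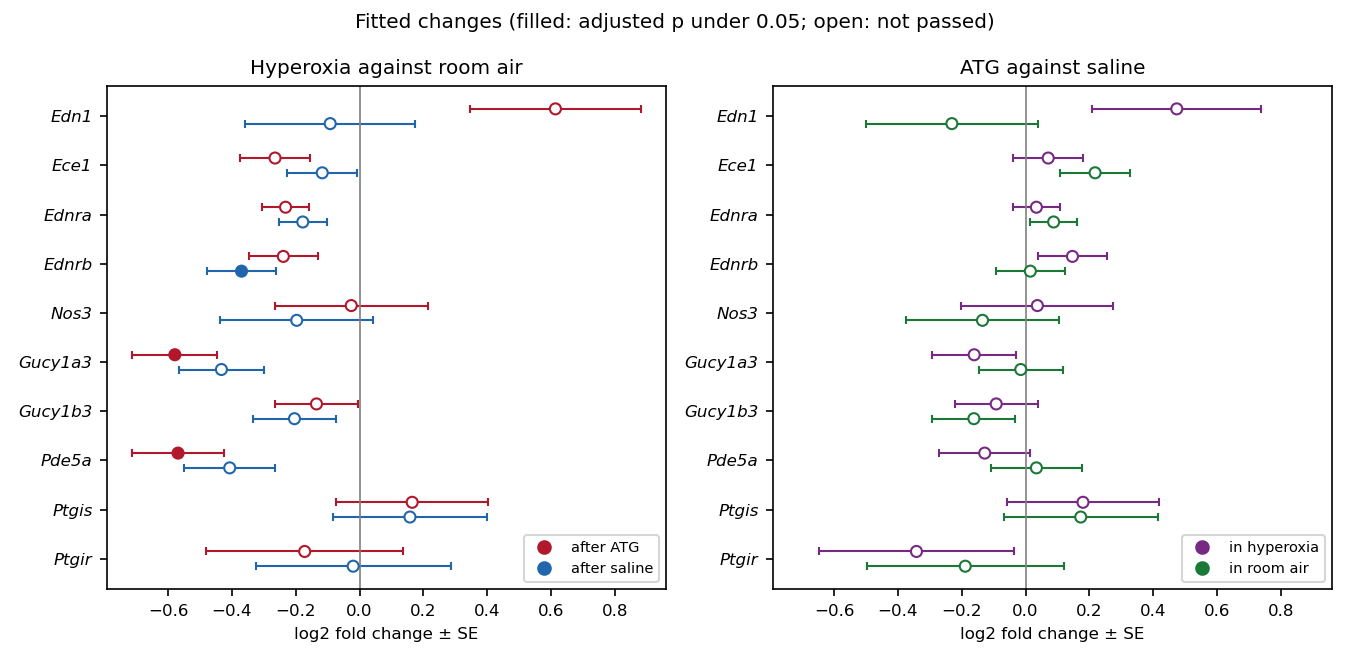
Log2 fold changes with their SE (horizontal axes) of the 10 genes, for hyperoxia against room air after ATG (red) and after saline (blue) on the left, and for ATG against saline in hyperoxia (purple) and in room air (green) on the right. Filled points passed an adjusted p of 0.05: Gucy1a3 (−0.58) and Pde5a (−0.57) after ATG and Ednrb (−0.37) after saline, with 0 points on the right.

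Set in order of CPM per kilobase of exon, averaged over the 12 libraries, the levels were Gucy1a3 (162), Ece1 (155), Ednra (116), Pde5a (79.9), Ednrb (57.4), Gucy1b3 (42.5), Edn1 (15.5), Ptgis (5.27), Nos3 (1.86) and Ptgir (1.68). Over libraries Gucy1a3 spanned 98.9 to 211 on this scale and Ece1 138 to 199, so those neighbours overlapped. Ednra (103 to 137) overlapped Gucy1a3 but lay just below Ece1, and Pde5a (48.7 to 103) reached the lowest Ednra library. Pde5a overlapped Ednrb (42.3 to 70.7), which overlapped Gucy1b3 (30.3 to 48.2), while Edn1 (8.87 to 26.3) overlapped neither Gucy1b3 nor Ptgis (3.88 to 7.79). Nos3 (1.34 to 2.48) and Ptgir (0.93 to 2.40) overlapped each other. The lowest 3 are richer in GC than most of the set, with 54.5% to 58.2% GC in the longest transcript. Ece1, at 54.8%, was among the highest, and the other 6 had 43.8% to 46.9%. The part of base composition in these levels was not tested.

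ATG was not followed by a call in any of the 10 genes. In hyperoxia 1 of 15761 genes passed for ATG against saline (0.00634%), in room air 0 (0.00%, with 949 at an unadjusted p under 0.05 and 16 by DESeq2) and averaged over oxygen 7 (0.0444%). Of the 10 genes, 0 reached even an unadjusted p under 0.05 in these 3 comparisons, where 5.69%, 6.02% and 8.47% of all genes did. The largest values in hyperoxia were 0.47 for Edn1 (SE 0.27, adjusted p = 0.894) and −0.34 for Ptgir (SE 0.31, adjusted p = 0.961). In room air they were −0.23 for Edn1 (SE 0.27, adjusted p = 0.957) and 0.22 for Ece1 (SE 0.11, adjusted p = 0.845). The ATG groups lay apart from saline in 1 gene each. Ece1 was at 691 to 731 CPM in the ATG hyperoxia libraries, against 665 to 687 CPM in saline hyperoxia, where 5.55% of all genes were higher without overlap. Gucy1b3 was at 131 to 141 CPM in ATG room air, against 149 to 156 CPM in saline room air, where 5.72% of all genes were lower without overlap. For Gucy1a3 the ATG change was −0.16 in hyperoxia (SE 0.13, adjusted p = 0.952) and −0.02 in room air (SE 0.13, adjusted p = 0.997). For Pde5a it was −0.13 (SE 0.14, adjusted p = 0.967) and 0.03 (SE 0.14, adjusted p = 0.992). The interaction of injection and oxygen passed for 0 of the 10 and 0 of 15761 genes (0.00%, with 465 at an unadjusted p under 0.05, 0 also by DESeq2 and limma-voom, and 4 genes without the 2 thymus-rich libraries), so the hyperoxia changes were not shown to differ between the injections.

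The genes most like each gene that passed, by Pearson's r of log2 CPM over the 12 libraries, among 11973 genes with a mean of at least 5 CPM, were as follows. For Gucy1a3 they were H2-Aa (0.983), Pde5a (0.978) and Wnt5a (0.977). For Pde5a they were Gucy1a3 (0.978), Gpr126 (0.971) and Ntng2 (0.970). Taken within groups, as deviations from the group means, Gucy1a3 and Pde5a still had r = 0.937. For Ednra the nearest were Fam168a (0.965), Sept9 (0.961) and Fads2 (0.958), and for Ednrb they were Clint1 (0.916), Dhx40 (0.915) and Txnip (0.911). These r values are descriptions over libraries that share the group difference, scaling and library make-up. Gucy1a3 and Gucy1b3 had r = 0.807 (0.874 within groups), and Ednra and Gucy1a3 had 0.768 (0.386 within groups).

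Of 9 other endothelin pathway genes tested, 1 was higher and 1 lower under hyperoxia in the average over injections (median −0.07), a share near the 22.4% of all genes that passed. Mme, which codes for neprilysin, an enzyme that degrades endothelin and other peptides, was higher by 0.28 (SE 0.07, adjusted p = 0.00832). Pcsk5, a proprotein convertase, was lower at −0.23 (SE 0.07, adjusted p = 0.0248). The Pcsk5 call was lost without any 1 of 8 libraries, at −0.23 without saline room air 1 or 3, −0.21 without saline room air 2 or ATG hyperoxia 1, −0.20 without ATG room air 1 or ATG hyperoxia 2, and −0.19 without ATG room air 3 or saline hyperoxia 2.

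In the nitric oxide and cyclic GMP pathway 5 of 28 other genes tested were higher and 3 lower (median 0.03). The shares over all genes in the averaged comparison were 11.0% higher and 11.3% lower. The arginine transporters Slc7a2 (0.35, SE 0.07, adjusted p = 0.00153) and Slc7a1 (0.38, SE 0.09, adjusted p = 0.0086), which supply the substrate of nitric oxide synthases, were higher. Cav1, the caveolar protein that binds endothelial nitric oxide synthase, was lower at −0.31 (SE 0.07, adjusted p = 0.0035). These 3 calls held in all 20 alternatives. Without ATG room air 1, the count for this list was 5.

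Of 19 other prostanoid genes tested, 3 were higher and 3 lower (median 0.04), beside 11.0% and 11.3% of all genes. Ptgs2, the inducible cyclooxygenase that makes the precursor of prostacyclin, had 58.6 ± 1.2 CPM in ATG hyperoxia, against 16.1 ± 2.2 CPM in ATG room air (SD, n = 3 each). After saline it had 54.7 ± 17.7 CPM in hyperoxia, against 15.5 ± 4.1 CPM in room air. Its change was 1.86 after ATG (SE 0.22, adjusted p = 0.0001392), 1.82 after saline (SE 0.22, adjusted p = 0.0002101) and 1.84 averaged (SE 0.16, adjusted p = 2.2e-06), and it passed in every alternative run for it. Prostacyclin synthase did not pass beside it. Hpgd, which inactivates prostaglandins, was lower at −0.60 (SE 0.14, adjusted p = 0.00627), and Slco2a1, which carries them into cells, was lower at −0.28 (SE 0.07, adjusted p = 0.0145). The Hpgd call held in all 20 alternatives and the Slco2a1 call in 19 of 20. Ptges2, a prostaglandin E synthase, was higher by 0.59 (SE 0.17, adjusted p = 0.0239). The Ptges2 call was lost without saline room air 2 (0.54), ATG room air 1 (0.59) or 3 (0.50), saline hyperoxia 1 (0.56) or 3 (0.53) or ATG hyperoxia 3 (0.55). The list's count was 3 without ATG room air 1.

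Of 22 other vasoactive and pulmonary hypertension genes tested, 2 were higher and 6 lower (median −0.10), beside 11.0% and 11.3% of all genes. Ace, the angiotensin-converting enzyme of lung endothelium, was lower at −0.40 (SE 0.06, adjusted p = 0.000262), and so was the angiotensin receptor gene Agtr1a, at −0.69 (SE 0.14, adjusted p = 0.00198). Smad9, a mediator of BMP signals, was lower at −0.54 (SE 0.10, adjusted p = 0.00156). Kcnk3, a potassium channel gene mutated in some families with pulmonary arterial hypertension, was lower at −0.60 (SE 0.13, adjusted p = 0.00291). These 4 calls held in all 20 alternatives. After ATG alone the other endothelin genes had 0 higher and 1 lower, the nitric oxide genes 1 and 2, the prostanoid genes 2 and 1, and the vasoactive genes 0 and 5. After saline alone they had 1 and 0, 1 and 1, 1 and 0, and 0 and 1. Over all genes, 11.7% passed after ATG and 9.19% after saline. In the comparisons of ATG with saline and in the interaction 0 genes of these 4 lists passed.

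Some markers of smooth muscle, pericytes, fibroblasts and macrophages passed in the same comparison, hyperoxia against room air averaged over injections. There 11.3% of all genes passed as lower and 11.0% as higher. Of 10 smooth muscle markers 6 were lower and 0 higher (median −0.25). Their summed level was 1799 to 1937 CPM in the ATG hyperoxia libraries, against 2233 to 2590 CPM in ATG room air, and 1756 to 1795 CPM in saline hyperoxia, against 2185 to 2358 CPM in saline room air. Actg2 (−0.61, SE 0.06, adjusted p = 7.39e-06) and Acta2 (−0.43, SE 0.06, adjusted p = 0.000163), both smooth muscle actins, had the smallest adjusted p. Of 12 pericyte markers 4 were lower and 0 higher (median −0.26), led by Vsnl1 (−1.26, SE 0.15, adjusted p = 2.94e-05) and Cox4i2 (−0.77, SE 0.14, adjusted p = 0.00115). The other 8 did not pass, and 3 of the 12 had a change above 0. The pericyte sum was 506 to 619 CPM in the ATG hyperoxia libraries, against 588 to 754 CPM in ATG room air, and 578 to 651 CPM in saline hyperoxia, against 708 to 724 CPM in saline room air. These groups overlapped after ATG but not after saline. Of 12 fibroblast markers 3 were lower and 0 higher (median −0.165). Pdgfra, a receptor of fibroblasts and of myofibroblast precursors, was lower at −0.76 (SE 0.09, adjusted p = 4.16e-05), as was the signalling gene Wnt2 (−0.45, SE 0.14, adjusted p = 0.0298), whose call held in 13 of 20 alternatives. The fibroblast sum was 5021 to 5737 CPM in the ATG hyperoxia libraries, against 5401 to 6936 CPM in ATG room air, and 5228 to 7184 CPM in saline hyperoxia, against 6157 to 7003 CPM in saline room air, so the groups overlapped. Of 6 macrophage markers tested 1 was lower, the lysozyme gene Lyz2 (−0.73, SE 0.11, adjusted p = 0.0002855), and 1 higher, Cd68 (0.46, SE 0.14, adjusted p = 0.0308, held in 14 of 20 alternatives). Lyz2 averaged 1662 ± 362 CPM in ATG hyperoxia and 2792 ± 345 CPM in ATG room air, and after saline 1641 ± 302 CPM in hyperoxia and 2678 ± 283 CPM in room air (SD, n = 3 each). The macrophage list's median was 0.02. The part of these markers in the lower Gucy1a3, Pde5a and Ednra was not tested.

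Endothelial markers were mixed, with 3 of 18 higher and 2 lower (median −0.12), beside 11.0% and 11.3% of all genes. Plvap, a capillary diaphragm protein, was higher by 0.40 (SE 0.07, adjusted p = 0.000682), and Sox17, an arterial transcription factor, was lower at −0.61 (SE 0.11, adjusted p = 0.000793). Their sum was 3207 to 3614 CPM in the ATG hyperoxia libraries, against 3396 to 3839 CPM in ATG room air, and 3048 to 3429 CPM in saline hyperoxia, against 3280 to 3547 CPM in saline room air, so the groups overlapped. Of 6 markers of aerocytes, the Car4-positive capillary cells of the alveolus, 1 was higher (Apln, 0.55, SE 0.14, adjusted p = 0.0124) and 3 were lower, led by Fibin (−0.66, SE 0.11, adjusted p = 0.000739). The aerocyte sum was 553 to 727 CPM in the ATG hyperoxia libraries, against 635 to 708 CPM in ATG room air, and 601 to 699 CPM in saline hyperoxia, against 662 to 698 CPM in saline room air. The part of these markers in the lower Ednrb was not tested.

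**Figure D4:**
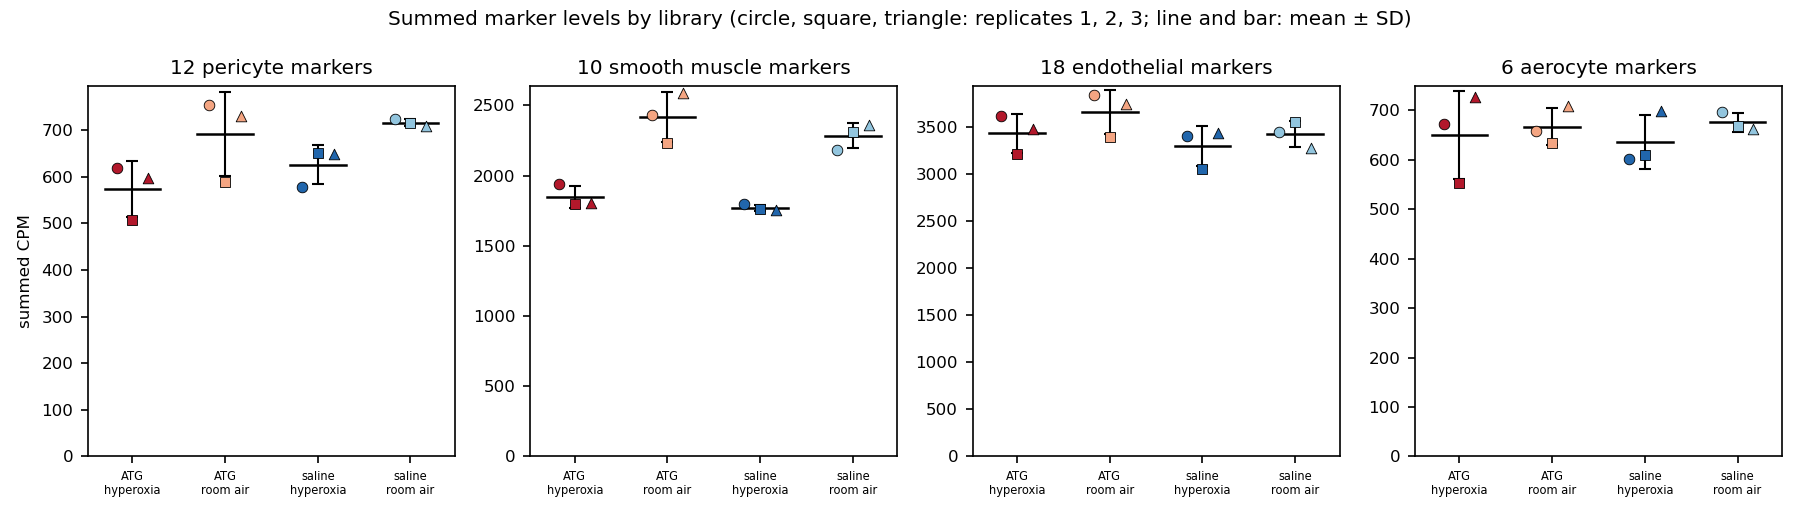
Summed CPM of the pericyte, smooth muscle, endothelial and aerocyte markers (vertical axes, from 0) in each library, by group. Lines and bars give the mean and SD of 3 libraries. The smooth muscle sum is at most 1937 CPM in the 6 hyperoxia libraries and at least 2185 CPM in the 6 room air libraries. Between the same 6 and 6 libraries the pericyte, endothelial and aerocyte sums overlap, although the pericyte sums do not overlap after saline alone.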

How the data were processed

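Lung RNA, taken once the lavage fluid was out, was amplified to cDNA with a NuGEN Ovation kit, and Nextera XT libraries were sequenced from both ends on an Illumina HiSeq, per the labels' protocols. The deposited table holds the authors' raw counts, by gene symbol, for each of 12 libraries. The submitters' processing notes name Bowtie2, Cufflinks, DESeq and the build mm10, with no version. How reads were counted, with which annotation and whether by strand, is not given in the sources used here.

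Genes were kept by filterByExpr (minimum count 10, minimum total 15), scaled by TMM and tested by edgeR's quasi-likelihood method on all 12 libraries, each group having its own mean, which left 8 residual degrees of freedom. The two-sided p-values were adjusted by Benjamini-Hochberg over 15761 genes. The 7 contrasts were hyperoxia against room air after ATG, after saline and averaged, ATG against saline in hyperoxia, in room air and averaged, and the interaction. CPM are TMM-scaled, and likeness was taken on log2 CPM (prior count 2). Amplified reads are not independent molecules. The fitting was tested on simulated counts. Versions were edgeR 4.0.16, DESeq2 1.42.0 and limma 3.58.1, in R 4.3.3.

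The alternatives tried were limma-voom, DESeq2, scaling by RLE, no filter, the replicate number as a block, sex as a covariate, the 6 libraries compared, leaving out each library, and leaving out the 2 heart-rich or the 3 heart-rich and skeletal-muscle-rich libraries. Leaving out both thymus-rich libraries was added after seeing the data, for the counts and the 10 genes. Where 1 library of a group is left, it is assumed to vary like the other groups. This applies to the fits without the 3 muscle-rich libraries, which keep saline hyperoxia 3, and without the thymus-rich ones, which keep saline hyperoxia 1. Replicates differed by more than sampling noise. That check cannot tell libraries of different animals from repeated amplifications of 1 RNA. Genes named are the 10 members, up to 4 per pathway list and 2 per marker list with the smallest adjusted p, of which those of the averaged hyperoxia comparison are described, and the 3 nearest by r. One gene that the rule names is not reported here. The members, lists and tests were chosen with earlier results of these data known. Positions come from RefSeq (GRCm38.p6), where 8 members matched by symbol and 2 by synonym, promoters from RefSeq (GRCm38.p6), and exon lengths and GC content from GENCODE vM21.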

Additional observations from a re-analysis of the deposited data

How the results depend on the processing

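Of the calls of the 10 genes, 126 of 143 alternative values kept their side of the threshold and 0 changed sign, while 17 no longer passed. Of the values that had not passed, 865 of 937 stayed so with the same sign, 22 passed and 50 changed sign. These tallies leave out the fit without the 2 thymus-rich libraries. For ATG against saline averaged over oxygen and for the interaction they hold Edn1 only. In hyperoxia against room air after saline the number of the 10 genes that passed, 1 in the report, was 3 with DESeq2, 2 with limma-voom, 2 without the filter and 3 in the fit of the 6 libraries compared. After ATG, where it was 2, it was 1 in the fit of the 6 libraries. Ednra also passed after ATG with DESeq2 (−0.23, adjusted p = 0.0221) and limma-voom (−0.23, 0.0441). Without the 2 heart-rich libraries Pde5a no longer passed after ATG (−0.39, adjusted p = 0.0581), while Edn1 passed as higher (0.89, 0.0242). Leaving out 1 library gave 0 to 3 of the 10 after saline and 0 to 4 after ATG, and 740 to 1704 of all genes after saline (lowest without saline room air 3) and 1150 to 2045 after ATG (lowest without ATG room air 3). Leaving out 1 library in the averaged comparison gave 4 to 5 of the 10. For ATG against saline, leaving out 1 library gave 0 to 1 genes in room air, 0 to 2 in hyperoxia and 0 to 24 averaged. The calls for ATG against saline were 16 in room air, 11 in hyperoxia and 94 averaged with DESeq2, 3 in hyperoxia with limma-voom, 3 averaged with RLE size factors, and 3 in hyperoxia and 24 averaged without the filter. With sex as a covariate they were 0 in hyperoxia and 4 averaged. Without the 2 heart-rich libraries they were 0 in hyperoxia and 2 averaged, and without the 3 muscle-rich libraries 0 in both. Without these 3, 781 genes passed for hyperoxia after saline. Without the 2 thymus-rich libraries, added after seeing the data, 588 genes and 0 of the 10 passed after saline, 2 of the 10 averaged over injections, and 4 genes for ATG in hyperoxia, 2 for ATG averaged and 4 for the interaction, and 0 values of the 10 genes under hyperoxia changed sign.

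The replicate number as a block gave 2 of the 10 genes for hyperoxia after saline (Gucy1a3 −0.43, adjusted p = 0.0386, and Pde5a −0.42, 0.0465, passed, and Ednrb −0.37, 0.0666, did not), 3 of all genes for ATG against saline averaged over oxygen, and a sign change for Ptgir after saline (0.027). Same-numbered libraries had correlations of their deviations of −0.16 to 0.28 over 18 pairs, with 2 above 0.1, so the numbers were not taken as pairs.

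Sign changes occurred in values that had not passed. For hyperoxia against room air they were Ptgis after saline with sex as a covariate (−0.02), Ptgir after ATG with sex (0.019), and, without the 2 heart-rich libraries, Gucy1b3 (0.029), Ptgis (−0.068) and Ptgir (0.077) after ATG and Ptgis averaged (−0.02). Without the 3 muscle-rich libraries they were Edn1 (0.18) and Ptgis (−0.25) after saline, Gucy1b3 (0.04), Ptgis (−0.057) and Ptgir (0.087) after ATG, and Gucy1b3 (0.011) and Ptgis (−0.15) averaged. For ATG against saline they were Ednrb (−0.11) and Pde5a (−0.037) in room air with sex, then Nos3 (−0.12), Gucy1a3 (0.01), Gucy1b3 (0.083) and Ptgir (0.10) in hyperoxia without the 2 heart-rich libraries, and Ptgir (0.24) without the 3. Leaving out 1 library moved Edn1 (−0.24 to 0.096) and Ptgir (−0.22 to 0.22) after saline, Nos3 (−0.28 to 0.11), Gucy1b3 (−0.27 to 0.029), Ptgis (−0.068 to 0.33) and Ptgir (−0.37 to 0.077) after ATG, and Ptgir (−0.19 to 0.032) averaged. For ATG against saline in room air it moved Ednrb (−0.07 to 0.054), Nos3 (−0.27 to 0.033), Gucy1a3 (−0.11 to 0.083), Pde5a (−0.045 to 0.15) and Ptgir (−0.34 to 0.043). In hyperoxia it moved Nos3 (−0.22 to 0.16), Gucy1b3 (−0.23 to 0.062), Pde5a (−0.22 to 0.037) and Ptgis (−0.061 to 0.34), and averaged over oxygen Edn1 (−0.011 to 0.25). For that average and the interaction only the sign of Edn1 was followed, so sign changes of the other genes there are not known. The cause of these moves was not tested. Depth limits Nos3, Ptgis and Ptgir most, at 55 to 318 counts per library.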
